A study of Mus musculus with 12 samples.

Results

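The proteasome is the main protease of the cytosol and nucleus, and 45 of the 50600 gene identifiers in these data carry a protein-coding symbol that starts with Psma, Psmb, Psmc, Psmd or Psme followed by a digit. These 45 genes are described here in CD8+ T cells, the cytotoxic lymphocytes, taken from lymph nodes of male C57BL/6J mice aged 8 weeks. The animals carried no named mutation and received no named treatment, and they were kept in constant darkness. Circadian time (CT) is counted in hours of the internal clock; 6 times, CT2, CT6, CT10, CT14, CT18 and CT22, were sampled on 2 days, which gave 12 polyA RNA libraries, 1 per time and day. By convention the first part of the cycle, up to CT12, is the subjective day, when mice rest, and the rest is the subjective night. The question set by the study's title is which transcripts of these cells follow the circadian cycle. The number of mice behind each sample is not stated, so the p-values cover the spread between these samples alone.

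A protein marked with ubiquitin is bound by the 19S regulatory particle, unfolded by its ring of ATPases and threaded into the 20S core. The core is a barrel of stacked rings: outer α rings form the gate, and inner β rings carry the cutting sites. Cells exposed to interferon, and lymphocytes in general, replace the constitutive cutting subunits by immunoproteasome subunits, which favour peptides that fit MHC class I molecules. Activators such as PA28 can sit on the barrel in place of the 19S particle. In mammalian cells the transcription factor NRF1, encoded by Nfe2l1, raises proteasome gene transcription when proteasome activity falls short.

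Of the 45 genes, 43 passed the filter on low counts that kept 16396 genes for testing. They comprised 14 genes of the constitutive 20S core, 3 immunoproteasome subunits, 17 subunits of the 19S base and lid, 3 assembly chaperones of the 19S base, 5 activator genes and Psmc3ip. Psmc3ip, which encodes a partner of the meiotic recombinases, meets the symbol rule without encoding a subunit. The 2 genes not tested were Psma8, the α subunit of testis, with 65 counts in all 12 libraries together, and Psmb11, the β subunit of the thymus cortex, with 1 count. The processed pseudogenes Psmb6-ps2, Psmb5-ps, Psmb6-ps and the transcribed Psmb7-ps2 are not protein-coding and had at most 14 counts each over all libraries.

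The libraries held 24689964 to 33497078 counts on genes, most of all at CT14. All 8 marker genes of CD8 T cells were present, with a summed level of 6058 to 7718 CPM (counts scaled to library size with TMM factors). Markers of other cells were present too. The 15 monocyte and macrophage markers summed to 328 to 1399 CPM and the 9 B cell markers to 815 to 1016 CPM. The 8 dendritic cell markers summed to 368 to 719 CPM and the 7 NK cell markers to 165 to 309 CPM. For the 5 tested markers of stroma and endothelium the sum was 139 to 180 CPM. It was 73.2 to 117 CPM for the 5 CD4 T cell markers and 12.6 to 104 CPM for the 6 neutrophil markers. The mean monocyte and macrophage sum ran from 448 CPM at CT10 to 1251 CPM at CT22. Of these 15 markers, 10 had an unadjusted p under 0.05 for the times by edgeR's quasi-likelihood test, beside 12.7% of all genes. Between the days 8 of the 9 B cell markers did, beside 1.9%. None of either list passed after adjustment, and the part of other cells in the proteasome values was not tested. No marker gene was at 0, though Ccl19 and Pdpn of the stromal list were too low to be tested. All of these cells express proteasome genes, and in bulk RNA fewer cells of a type and less RNA per cell cannot be told apart. The library of CT2 day 1 stood apart from the rest, and results that rest on it are given with and without it.

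None of the 43 proteasome genes passed a test of circadian change with all 12 libraries and the filter on low counts. With 2 libraries per time, no change over the cycle was thus detected. Under 2 other settings, given below, some members passed the test of the times. In TPM, which is scaled to transcript length and so can be set side by side between genes, the 20S core subunits had means from 83.8 to 228 TPM with a median of 152 TPM. The 19S base and lid subunits had 43.2 to 125 TPM with a median of 79.3 TPM, and the immunoproteasome subunits 170 to 413 TPM. The PA28 genes Psme2 and Psme1 had the highest means of all the members, 560 ± 30.5 and 529 ± 20.7 TPM (SD, n = 12). The assembly chaperones were low, with 29.6 ± 2.56 TPM for Psmd5, 24.04 ± 1.72 TPM for Psmd10 and 16.0 ± 1.90 TPM for Psmd9 (SD, n = 12).

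**Figure D1:**
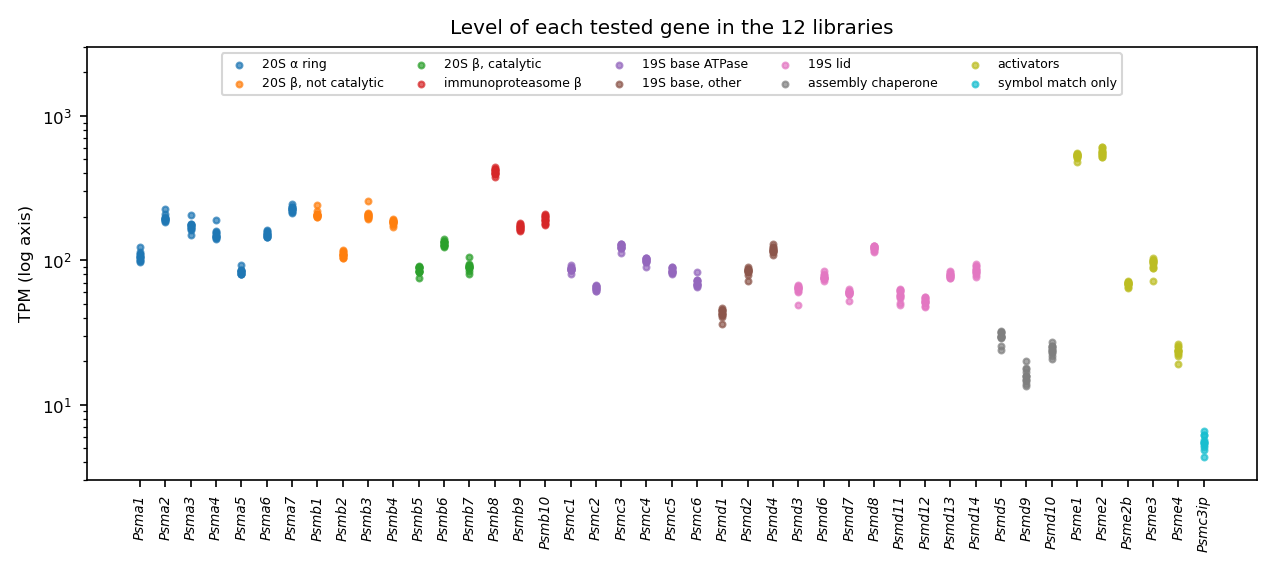
Level of the 43 tested genes in each of the 12 libraries, in TPM on a log axis, with genes grouped and coloured by role. The points of a gene lie close together: Psmb8, Psme1 and Psme2 stand at 378 TPM or more in every library, and Psmc3ip, which encodes no subunit, stands lowest at 5.52 ± 0.607 TPM (SD, n = 12).

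With edgeR's quasi-likelihood test, adjusted by Benjamini-Hochberg over all tested genes, 0 of the 43 members differed among the 6 circadian times, beside 0.256% of all genes. None of the 43 fitted a 24 h wave at an adjusted p under 0.05, beside 0.0% of all genes. The number that differed at CT14 from the other times was likewise 0, beside 1.13% of all genes. At an unadjusted p under 0.05, the same single member, the lid gene Psmd11, stood out in each of these tests, beside 12.7% of all genes for the circadian times, 13.3% for the wave and 13.2% for CT14. DESeq2 also called 0 members for the times, the wave and CT14, beside 3.4%, 1.67% and 2.32% of the genes it adjusted, and limma on log2(TPM + 0.5) called 0, beside 0.0854%, 0.0% and 0.165%. The median difference at CT14 was 0.02 log2 over the 43 members and -0.01 log2 over all tested genes.

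Intervals of 2 standard errors limit the size of a difference at CT14 and of a 24 h wave, but not of a change at another single time. Over the 42 members that averaged 20 CPM or more, the difference at CT14 plus 2 standard errors did not exceed 0.28 log2, a 1.22-fold change, and minus 2 standard errors did not go below -0.27 log2. The amplitude of the 24 h wave, the log2 distance from mean to peak, had a median of 0.05 over the 43 members, and plus 2 standard errors it did not exceed 0.24 in those 42. The 7299 genes that averaged 20 CPM or more had a median amplitude of 0.06. Across the 12 libraries the median coefficient of variation (SD over mean) of the members was 7.04%, and without the CT2 day 1 library it was 3.72%. For the 7299 genes it was 6.54% with all 12 libraries and 5.46% without CT2 day 1. Of the 42 members, 19 lay below the first value with all 12 libraries, and 36 lay below the second without CT2 day 1. The 7299 genes share the limit of 20 CPM with these members but were not otherwise matched by level.

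**Figure D2:**
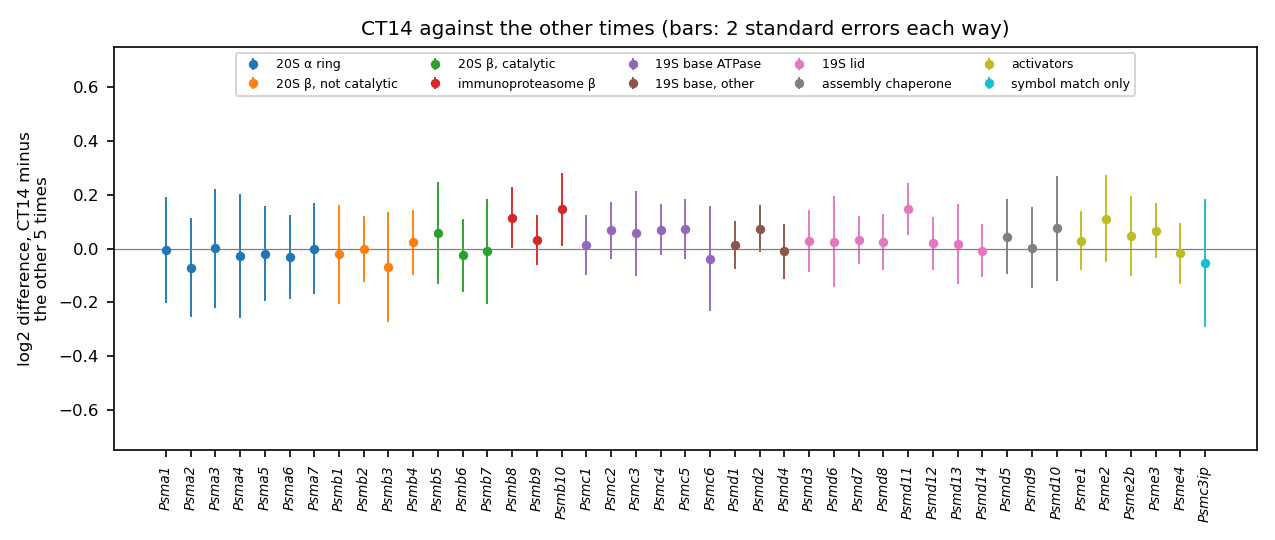
Difference between CT14 and the mean of the other 5 times for each tested member, on the log2 scale, with bars of 2 standard errors each way from edgeR's fit to 12 libraries. The bars of the 20S core genes all span 0, and Psmd11, Psmb10 and Psmb8 have the highest lower ends. For Psmb10 and Psmb8 the bars lie above 0, though their unadjusted p was 0.05657 and 0.06745 by edgeR's quasi-likelihood test.

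The constitutive 20S core, made up of 7 α subunit genes, Psma1 to Psma7, and 7 β subunit genes, Psmb1 to Psmb7, had no member with an unadjusted p under 0.05 in any test. Their differences at CT14 ran from -0.07 to 0.06 log2, with 4 of the 14 above 0, but 12 of the 14 without the CT2 day 1 library and 2 of the 14 without CT2 day 2. Among the α genes, Psma2 had 139.8, 149, 134, 142, 140.4 and 139 CPM at CT2, CT6, CT10, CT14, CT18 and CT22 of day 2, and 195, 140.1, 135, 134, 138 and 144 CPM at the same times of day 1. Psma4 had 113, 112, 114, 122, 117 and 118 CPM from CT2 to CT22 of day 2, and 176, 119, 113, 114, 112 and 115 CPM of day 1. At CT2 the day 1 library was the highest of the 12 for both genes, and the remaining 11 libraries spread over 134 to 149 CPM for Psma2 and 112 to 122 CPM for Psma4. The other 5 α genes, Psma1, Psma3, Psma5, Psma6 and Psma7, averaged 67.1 to 152 CPM and showed the same high library.

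Of the β subunits without a cutting site, Psmb3 had 104, 105, 99.7, 106, 104 and 103 CPM from CT2 to CT22 of day 2, and 152, 104, 100.6, 98.5, 99.2 and 107 CPM of day 1. Psmb4 had 134, 133, 132, 134, 128 and 125 CPM from CT2 to CT22 of day 2, and 159, 124, 125, 133, 127 and 131 CPM of day 1. Their CT14 libraries, 106 and 98.5 CPM for Psmb3 and 134 and 133 CPM for Psmb4, lay inside the range of the other times. Psmb1 and Psmb2, which complete this ring, averaged 177 and 70.0 CPM with differences at CT14 of -0.02 and -0.0006 log2.

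The cutting subunits come in exchangeable pairs, and the immunoproteasome member of each pair was the higher in TPM in all 12 libraries. Psmb8, which replaces the chymotrypsin-like subunit Psmb5, averaged 413 ± 19.1 TPM, and Psmb5 averaged 86.0 ± 4.50 TPM (SD, n = 12). Psmb10, which replaces the trypsin-like Psmb7, averaged 194 ± 10.99 TPM against 90.7 ± 6.15 TPM for Psmb7 (SD, n = 12). Psmb9, which replaces the caspase-like Psmb6, averaged 170 ± 6.07 TPM against 132 ± 4.72 TPM for Psmb6 (SD, n = 12). The immunoproteasome gene thus made up 82.8 ± 0.92% of the Psmb8 and Psmb5 sum, 68.1 ± 1.82% of the Psmb10 and Psmb7 sum and 56.4 ± 0.97% of the Psmb9 and Psmb6 sum (SD, n = 12). Both members of a pair are present in bulk RNA, and these values do not say whether they are in the same cells.

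The ratio of Psmb8 to Psmb5 had a mean of 4.81 ± 0.30 (SD, n = 12) and ran from 4.18 at CT2 day 1 to 5.39 at CT10 day 1. Its time means were 4.53 ± 0.50 at CT2, 4.87 ± 0.25 at CT6, 5.24 ± 0.21 at CT10, 4.86 ± 0.06 at CT14, 4.77 ± 0.04 at CT18 and 4.605 ± 0.14 at CT22 (SD, n = 2). The CT10 libraries, 5.09 and 5.39, were the highest of the 12, and the neighbouring CT6 value of day 2 was 5.05. The ratio depended on how Psmb5 was counted: gene counts of Psmb5 were 50.6% of its RSEM expected counts, which also use reads that map to several places, and in counts per kilobase the median ratio was 10.2. For the other members except Psmb5 and the untested Psmb11, gene counts were 86.9% to 118% of the expected counts.

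The ratio of Psmb10 to Psmb7 had a mean of 2.14 ± 0.17 (SD, n = 12), and from CT2 to CT22 its time means were 1.96 ± 0.29, 2.08 ± 0.235, 2.20 ± 0.06, 2.32 ± 0.06, 2.22 ± 0.0033 and 2.07 ± 0.02 (SD, n = 2). Its lowest value, 1.75, was again the CT2 day 1 library, while CT2 day 2 stood at 2.17. The ratio of Psmb9 to Psmb6 was the flattest, with a mean of 1.29 ± 0.05 (SD, n = 12) and extremes of 1.22 at CT22 day 1 and 1.41 at CT14 day 2. For the sums of the 3 genes of each kind, the ratio ran from 2.188 at CT2 day 1 to 2.70 at CT14 day 2. These ratios are described without a test.

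**Figure D3:**
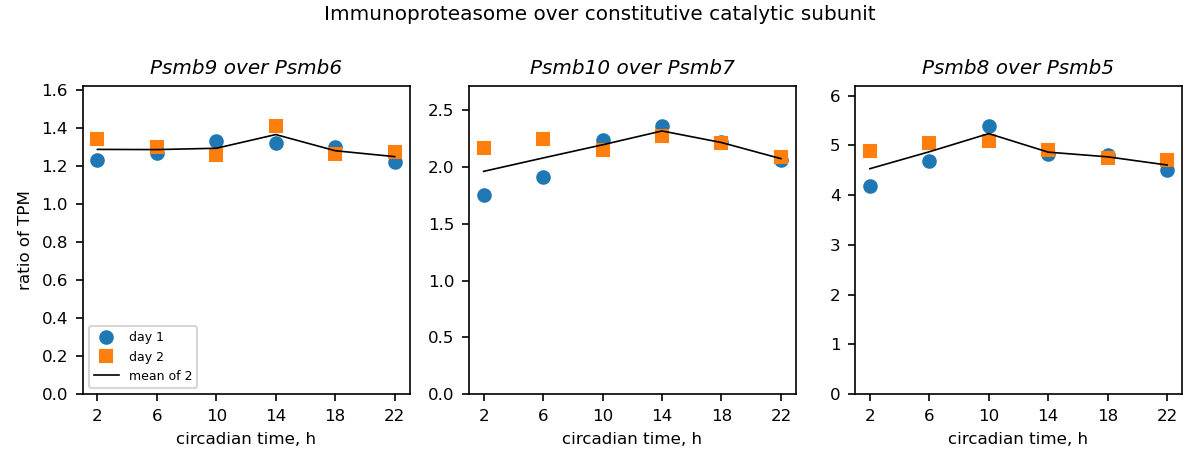
Ratio of immunoproteasome to constitutive cutting subunit in TPM (vertical axis, from 0) against circadian time in hours, for each pair; circles are day 1, squares day 2, and the line joins the mean of the 2 libraries of a time. Every point lies above 1, and the CT2 day 1 circle is the lowest of 12 for Psmb10 over Psmb7 (1.75) and for Psmb8 over Psmb5 (4.18).

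Psmb8 lies on chromosome 17 at 34197721 to 34201454 (plus strand) and Psmb9 beside it at 34181987 to 34187764 (minus strand), in the MHC region. Psmb8 had 372, 386, 396, 418, 362 and 366 CPM from CT2 to CT22 of day 2, and 408, 352, 370.2, 399.5, 383 and 378 CPM of day 1. Its CT14 libraries, 418 and 400 CPM, overlapped the others through the CT2 day 1 library at 408 CPM. The difference at CT14 was 0.12 ± 0.06 log2 (standard error; unadjusted p = 0.0674, Benjamini-Hochberg adjusted p = 0.426 by edgeR's quasi-likelihood test). Psmb9 had 154, 148, 146, 156, 142 and 145 CPM from CT2 to CT22 of day 2, and 167, 142, 146, 148, 147 and 148 CPM of day 1. Its 2 CT14 libraries did not stand apart, and its difference at CT14 was 0.03 ± 0.05 log2. Psmb9 overlaps Tap1, a peptide transporter gene, on the opposite strand, and 8.27% of the reads counted on either strand of Psmb9 fell on the opposite one.

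Psmb10 had 120.4, 121, 115, 139, 119 and 113 CPM from CT2 to CT22 of day 2, and 137, 106, 115, 126, 127 and 123 CPM of day 1. Its CT14 library of day 2, at 139 CPM, was the highest of the 12, while that of day 1, at 126 CPM, lay below CT2 and CT18 of day 1. The difference at CT14 was 0.15 ± 0.07 log2 (unadjusted p = 0.0566, Benjamini-Hochberg adjusted p = 0.396 by edgeR's quasi-likelihood test). The difference was 0.24 within day 2 and 0.05 within day 1, and for Psmb8 it was 0.15 within day 2 and 0.08 within day 1. Without the CT2 day 1 library these differences were 0.17 for Psmb10 and 0.13 for Psmb8, with edgeR's quasi-likelihood adjusted p of 0.142 and 0.152.

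With all 12 libraries, the constitutive partners did not stand apart at CT14. Psmb5 had 25.4, 23.7, 25.2, 27.6, 23.9 and 25.5 CPM from CT2 to CT22 of day 2, and 32.8, 23.6, 21.1, 25.2, 25.4 and 27.3 CPM of day 1. Psmb6 had 76.05, 75.2, 73.4, 73.8, 75.4 and 72.9 CPM from CT2 to CT22 of day 2, and 93.3, 71.2, 70.7, 74.7, 70.8 and 78.2 CPM of day 1. Psmb7 had 74.2, 75.8, 70.99, 79.5, 75.8 and 76.6 CPM from CT2 to CT22 of day 2, and 106, 78.2, 67.97, 75.5, 75.2 and 82.1 CPM of day 1. Their differences at CT14 were 0.06 ± 0.10, -0.03 ± 0.07 and -0.01 ± 0.10 log2 for Psmb5, Psmb6 and Psmb7. Without the CT2 day 1 library they were 0.10, 0.01 and 0.05 log2. For all 3 the CT2 day 1 library was the highest and the CT14 libraries lay inside the range of the other times. For Psmb5 this rests on CT2 day 1, since its CT14 library of day 2, at 27.6 CPM, was above every other library. Whether the immunoproteasome genes and their partners differ from each other at CT14 was not tested.

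The 19S base holds the ATPase ring, encoded by Psmc1 to Psmc6, and the scaffold and ubiquitin receptor genes Psmd1, Psmd2 and Psmd4. None of the 9 had an unadjusted p under 0.05 in any test. Of the ATPases, Psmc3 had 135, 134, 138, 145, 137 and 132 CPM from CT2 to CT22 of day 2, and 177, 128, 131, 142, 133 and 140.5 CPM of day 1. Psmc6 had 91.04, 91.7, 88.3, 95.7, 94.3 and 93.8 CPM from CT2 to CT22 of day 2, and 130.5, 96.6, 88.2, 91.2, 89.5 and 97.6 CPM of day 1. Apart from CT2 day 1, the Psmc3 libraries stayed within 128 to 145 CPM and those of Psmc6 within 88.2 to 97.6 CPM. Psmc1, Psmc2, Psmc4 and Psmc5 averaged 90.9 to 106 CPM, with differences at CT14 of 0.01 to 0.07 log2.

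Psmd1 and Psmd2 encode Rpn2 and Rpn1, the large scaffold subunits of the base. Psmd1 had 97.7, 91.3, 93.5, 93.9, 95.8 and 100.2 CPM from CT2 to CT22 of day 2, and 92.9, 90.7, 87.5, 96.3, 96.8 and 96.5 CPM of day 1. Psmd2 had 188, 191, 189.6, 199.9, 189 and 192 CPM from CT2 to CT22 of day 2, and 196, 184, 179, 199.5, 187 and 199.7 CPM of day 1. These are among the longest transcripts of the set, and in both genes the CT2 day 1 library lay inside the range of the others. Psmd4, which encodes the ubiquitin receptor Rpn10, averaged 119 CPM with a difference at CT14 of -0.01 log2.

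The lid, which carries the deubiquitinase Psmd14, held the only member with an unadjusted p under 0.05. Psmd11 (ENSMUSG00000017428.16, chromosome 11 at 80428615 to 80473248, plus strand) encodes Rpn6, the subunit that clamps the 19S particle to the core. Psmd11 had 90.2, 89.1, 85.02, 103, 94.98 and 94.7 CPM from CT2 to CT22 of day 2, and 93.6, 79.5, 84.9, 97.7, 96.2 and 96.97 CPM of day 1. The 2 CT14 libraries were above each of the 10 others, whose range was 79.5 to 96.97 CPM, and the 4 lowest libraries were those of CT6 and CT10. No other member had both CT14 libraries above the rest, beside 4.72% of all genes.

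At CT14, Psmd11 exceeded the other times by 0.15 ± 0.05 log2 (standard error; unadjusted p = 0.0117, Benjamini-Hochberg adjusted p = 0.200 by edgeR's quasi-likelihood test). Its 24 h wave had an amplitude of 0.11 ± 0.03 log2 with a fitted peak at 18.5 ± 1.03 h (unadjusted p = 0.00892, adjusted p = 0.257 by edgeR's quasi-likelihood test). For the 6 times together the unadjusted p was 0.0138 and the adjusted p 0.260 by the same edgeR test. The difference at CT14 was 0.18 within day 2 and 0.12 within day 1. Without the CT2 day 1 library it was 0.16, with an adjusted p of 0.0752 in edgeR's fit, so it stayed above the threshold. Over all the alternative settings, its adjusted p for CT14 ran from 0.0752 to 0.911.

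Psmd6, which encodes Rpn7, had the next smallest p of the lid genes. Psmd6 had 74.4, 72.2, 71.9, 78.7, 76.2 and 72 CPM from CT2 to CT22 of day 2, and 99.7, 74.2, 71.96, 77.02, 74.04 and 80.05 CPM of day 1. Leaving aside CT2 day 1, its libraries spread over 71.9 to 80.0 CPM. Psmd7, the partner of Psmd14 in the lid, was the least variable of the 43 tested members, with 71.3 to 77.6 CPM and a coefficient of variation of 2.45%. Psmd3, Psmd8, Psmd12, Psmd13 and Psmd14 averaged 78.7 to 125 CPM, with differences at CT14 from -0.01 to 0.03 log2.

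The assembly chaperones hold the base subunits together before the ring closes and are not part of the finished particle. Psmd5 had 55.4, 47.8, 52.5, 56.05, 53.7 and 52.99 CPM from CT2 to CT22 of day 2, and 68.9, 52.2, 50.7, 55.3, 52.8 and 54.2 CPM of day 1. Psmd10, which encodes gankyrin, had 26.2, 23.6, 25.1, 28.5, 26.7 and 23.99 CPM from CT2 to CT22 of day 2, and 34.5, 26.6, 22.7, 26.1, 24.5 and 26.4 CPM of day 1. Psmd5 had an unadjusted p of 0.0638 among the circadian times and an edgeR quasi-likelihood adjusted p of 0.425, and its CT2 day 1 library was 1.30 times the mean of the other 11. Psmd9 averaged 22.1 CPM with a difference at CT14 of 0.0044 log2.

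Among the activators, Psme1 and Psme2 encode the PA28α and PA28β subunits, which interferon induces, and lie close to each other on chromosome 14 at 55578123 to 55581529 and 55587441 to 55591113. Psme1 had 396, 421, 410.0, 421, 393 and 386 CPM from CT2 to CT22 of day 2, and 429, 379, 404, 402, 406 and 405 CPM of day 1. Psme2 had 276, 286, 279, 319, 282 and 281 CPM from CT2 to CT22 of day 2, and 362, 271, 260.3, 302, 289 and 291 CPM of day 1. Psme1 was flat, with all libraries from 379 to 429 CPM. Psme2 had CT14 libraries of 319 and 302 CPM against 260 to 291 CPM in the other times without CT2 day 1, which stood at 362 CPM.

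The difference of Psme2 at CT14 was 0.11 ± 0.08 log2 (unadjusted p = 0.197) and was 0.15 with an unadjusted p of 0.0034 once CT2 day 1 was left out, where edgeR's quasi-likelihood adjusted p was 0.0673. The ratio of Psme1 to Psme2 in TPM was 0.95 ± 0.06 (SD, n = 12), with 0.78 in CT2 day 1 and 0.90 to 1.02 in the other 11 libraries. Psme2b, a near-identical copy of Psme2 on chromosome 11, averaged 33.5 CPM. It overlaps Gm12185 and 9930111J21Rik1 on the same strand, so its counts are uncertain.

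Psme3 encodes PA28γ, a nuclear activator. Psme3 had 179.6, 179, 176, 189.5, 180.0 and 184 CPM from CT2 to CT22 of day 2, and 165, 164, 185, 182, 182 and 179 CPM of day 1. In its CT2 day 1 library Psme3 stood at 0.913 times the mean of the other 11 libraries. Psme4, which encodes the large activator PA200, averaged 121 CPM and stood at 0.912 times the other 11 there. Psmc3ip had 4.995, 4.84, 4.92, 5.27, 5.05 and 4.64 CPM from CT2 to CT22 of day 2, and 5.31, 4.92, 4.71, 4.08, 4.59 and 4.57 CPM of day 1. Its counts are uncertain, since it overlaps Mlx on the opposite strand and 67.1% of the reads counted on either strand of it fell on that strand.

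**Figure D4:**
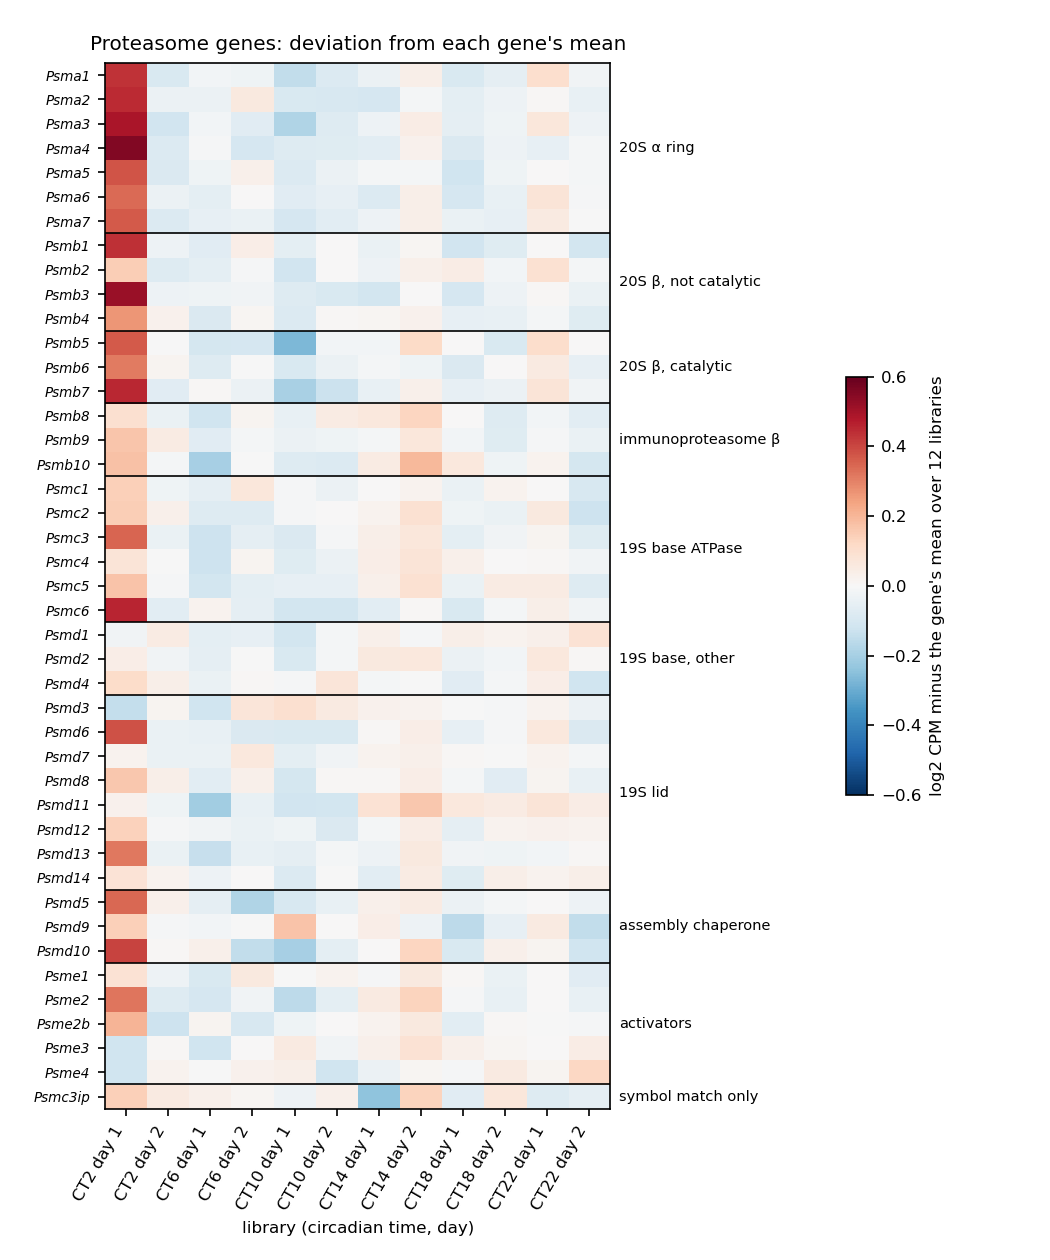
Deviation of each tested member from its own mean over the 12 libraries, in log2 CPM (red above, blue below), with genes grouped by role and libraries by circadian time and day. The CT2 day 1 column is red for most genes, deepest in the α ring and the constitutive β genes (up to 0.56 for Psma4), and its median is 0.18, while the medians of the other columns run from -0.08 to 0.04. In TPM the median ratios of that library to the mean of the others were under 1 for the 19S and the immunoproteasome genes, though single genes such as Psmb9 and Psmc6 were above 1.

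The CT2 day 1 library carried most of the variation of the constitutive core. The median coefficient of variation there was 11.3% with it and 3.42% without it. For the 19S base and lid genes these medians were 4.83% and 3.62%, and for the immunoproteasome genes 5.15% and 4.97%. The CT2 day 1 library was the highest of the 12 in 32 of the 43 members in CPM, beside 19.1% of all genes and 23.0% of the genes of at least 20 CPM. It was highest in all 14 constitutive core genes, where its level was 1.36 times the mean of the other 11 libraries at the median, with a range from 1.12 for Psmb2 to 1.52 for Psma4. In the 19S base and lid it was the highest in 11 of 17 genes with a median of 1.11, and among the immunoproteasome genes in 1 of 3 with a median of 1.13, though both medians were under 1 in TPM. It was the lowest of the 12 for Psmd3, with 0.895 times the others, and for Psme4, beside 18.2% of all genes and 29.1% of the genes of at least 20 CPM. The CT2 library of day 2, from the same time, gave no such values: the core genes stood 1.17 to 1.56 times higher in CT2 day 1 than in CT2 day 2.

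These values go with transcript length and with the scaling. Over the 7299 genes, the deviation of CT2 day 1 had a median of 0.16 log2 in the shortest of 5 equal classes by effective length, then 0.01, -0.05, -0.08 and, in the longest class, -0.12. The Spearman correlation of length with this deviation was -0.47 across the 7299 genes and -0.54 across the 43 members, whereas the other 11 libraries had -0.12 to 0.39 across the genes and -0.02 to 0.46 across the members. These are correlations across genes of 1 library and not across samples. Of the 42 members of at least 20 CPM, 29 fell in the shortest class, where their median deviation was 0.32 log2 against 0.16 for all genes of that class.

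In the deposited TPM values, the median of the 7299 genes was itself shifted by -0.30 log2 in CT2 day 1 relative to the mean of the other 11 libraries. There the core genes stood at a median of 1.14 times the others and were highest in 10 of 14. The 19S base and lid genes stood at 0.921 times and the immunoproteasome genes at 0.959 times. Against the other 11 libraries, the direction of these 2 groups therefore depended on the scaling. The median gene stood at 0.814 times in TPM and 0.969 times in CPM. Relative to it, the core genes were higher on both scales. So were the medians of the 19S base and lid genes (1.11 times in CPM) and of the immunoproteasome genes (1.13 times in CPM). In the same library the monocyte and macrophage markers summed to 928 CPM, against 339 CPM in CT2 day 2, and the CD8 T cell markers to 7316 CPM, against 7718 CPM. The part that length, RNA quality or other cells have in the CT2 day 1 values was not tested.

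**Figure D5:**
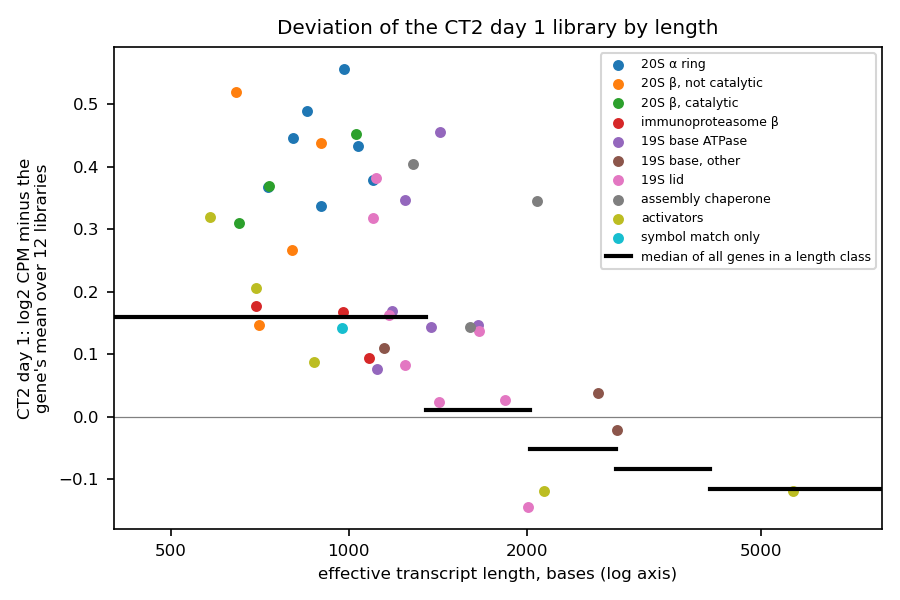
Deviation of the CT2 day 1 library from each member's mean, in log2 CPM, against effective transcript length in bases (log axis); points are the tested members coloured by role, and black bars give the median of all genes of at least 20 CPM in each of 5 equal classes by length, drawn over the class's range within the axis. The bars step down from 0.16 in the shortest class to -0.12 in the longest, and most α ring and constitutive β points lie above the bar of their length.

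With all 12 libraries, the mean of CT2 was the highest of the 6 times in 31 of 43 members, beside 23.3% of all genes, and CT10 was the lowest in 21, beside 19.9%. The median amplitude of the 14 core genes was 0.10 log2 with the CT2 day 1 library and 0.03 without it. Leaving that library out gave 0 members that differed among the times (2 at an unadjusted p under 0.05, beside 19.8% of all genes), beside 3.91% of all genes. The difference at CT14 was then above 0 in 38 of 43 members, beside 51.6% of all genes, and had a median of 0.05 log2. With all libraries it was above 0 in 28 members, beside 48.2% of all genes. Then 6 members, Psmc3, Psmb10, Psmd11, Psme2, Psmd2 and Psmb8, had an unadjusted p under 0.05 at CT14, beside 18.2% of all genes, with all 6 values higher at CT14, and none passed after edgeR's Benjamini-Hochberg adjustment, beside 3.77% of all genes. Leaving out CT2 day 2 instead, so that the day 1 library alone stood for CT2, gave 17 of 43 members that differed among the times, beside 10.2% of all genes.

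Those 17 were Psma1 to Psma7, Psmb1, Psmb3, Psmb6, Psmb7, Psmc3, Psmc6, Psmd5, Psmd6, Psmd13 and Psme2. They include 11 of the 14 core genes, and the spread assumed for the lone CT2 library is that of the other times. Without the filter on low counts, 7 of 45 members differed among the times, beside 7.17% of all genes: Psma2, Psma3, Psma4, Psmb1, Psmb3, Psmb7 and Psmc6, in each of which CT2 day 1 was the highest library.

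Between the days, 0 of the 43 members differed by edgeR's quasi-likelihood test, beside 0.0% of all genes, and 0 had an unadjusted p under 0.05, beside 1.9%; the smallest unadjusted p was 0.167. DESeq2 and limma on TPM called 0 of them too. The differences of day 2 from day 1 ran from -0.09 to 0.08 log2, and 12 of the 43 were above 0, beside 50.9% of all genes. None of the 14 constitutive core genes was among the 12, with a median of -0.05 log2 in that group, and the high CT2 library is among the 6 of day 1. Without that library, 39 of the 43 differences were above 0, beside 50.2% of all genes, with a median of 0.02 log2. These 39 included all 14 core genes, whose median was then 0.02 log2. With limma on TPM and all 12 libraries 26 were above 0, beside 64.9% of all genes.

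With edgeR's test and all 12 libraries, the wider pathway held few changes apart from the chaperones. Of the lists named here, the heat shock genes changed most: 12 of 18 differed among the times and 13 of 18 rose at CT14, with none lower, by edgeR's quasi-likelihood test over all genes, in which 0.567% of all genes rose at CT14. Those that rose at CT14 were Hsph1, Hspa8, Hspa1a, Hspa1b, Hsp90ab1, Hspa4l, Dnaja1, Dnajb1, Stip1, Chordc1, Ahsa1, Fkbp4 and Hspd1, which encode Hsp70, Hsp90 and Hsp60 chaperones and their helpers. Hsph1, an Hsp110 chaperone, had 366 and 333 CPM at CT14 against 90.04 to 160.2 CPM at the other times, a difference of 1.498 ± 0.06 log2 (adjusted p = 1.3e-06, edgeR's quasi-likelihood test). Stip1, which links Hsp70 to Hsp90, had 293 and 277 CPM at CT14 against 122 to 170 CPM, and its difference was 0.91 ± 0.05 log2. Hspa1a and Hspa1b are near-identical copies whose counts are uncertain. Fewer of the 18 passed at CT14 and among the times when a single CT14 library of day 1 or of day 2 was left out. Fewer also passed among the times without CT6 day 1, and 0 passed among the times without both CT14 libraries. With the days as a replicate block 13 passed at CT14 and 8 among the times. This list was chosen with its earlier result in these data known and is no independent evidence.

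Among 13 further 19S subunits and proteasome-associated factors, 0 passed the test of the times and 1 rose at CT14. Ubqln1, which encodes a shuttle that carries ubiquitinated proteins to the proteasome, had 159.7 and 152 CPM at CT14 against 111 to 134 CPM at the other times. Its difference was 0.33 ± 0.06 log2 (adjusted p = 0.0338, edgeR's quasi-likelihood test). Its adjusted p was 0.0479 with the days as a replicate block. The call was lost with limma on TPM (adjusted p = 0.394) and when any of 9 single libraries was left out, up to an adjusted p of 0.516 in edgeR's test without CT14 day 2. Usp14, a deubiquitinase that docks on the 19S particle, had 54.6 and 51.6 CPM at CT14 against 44.8 to 55.1 CPM, with a difference of 0.07 ± 0.05 log2. Its groups overlapped.

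In the other lists 1 gene passed edgeR's test with all 12 libraries. Of the 13 interferon response genes, Irf1, a transcription factor that drives immunoproteasome genes in other cells, rose at CT14, with 336 and 360.4 CPM against 273 to 313 CPM, a difference of 0.24 ± 0.05 log2 (adjusted p = 0.0454, edgeR's quasi-likelihood test). Its adjusted p in edgeR's test was 0.067 with the days as a replicate block. The call was also lost with limma on TPM (adjusted p = 0.193) and when any of 10 single libraries was left out, up to 0.528 without CT14 day 1. Igtp, an interferon-induced GTPase, had 199 and 195 CPM at CT14 against 150.4 to 179 CPM and an adjusted p of 0.0714 in the same edgeR test. The CT14 libraries of both genes lay above all others.

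With all 12 libraries, edgeR's quasi-likelihood test over all genes passed 0 of 7 genes of proteasome assembly and inhibition and 0 of 6 p97 genes. It also passed 0 of 7 genes of the NRF1 pathway and 0 of 11 genes of MHC class I antigen processing. This held for the times and for CT14. At an unadjusted p under 0.05 these lists had 0, 0, 2 and 4 genes for the times and 0, 0, 0 and 1 for CT14. The shares of all genes were 12.7% and 13.2%. For the times, DESeq2 passed Calr, Canx and Pdia3 of the MHC list, beside 3.4% of the genes it adjusted. Without both CT2 libraries edgeR passed Calr and Canx, beside 527 of 16275 genes. Without the filter on low counts B2m, Calr, Canx, Erap1, Ngly1, Pdia3 and Pomp passed, beside 7.17% of all genes. No gene of these lists passed at CT14 in these settings. Psmg1, a chaperone of the α ring, ranged from 20.7 to 29.0 CPM and Ecpas, which holds 19S and 20S particles together, from 124 to 140.0 CPM. The p97 cofactors Ufd1 and Nsfl1c ranged from 65.0 to 75.8 and from 59.0 to 79.1 CPM.

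Within the NRF1 pathway, Ddi2, the protease that releases NRF1, ranged from 75.5 to 98.2 CPM and Ngly1, which removes its sugars, from 65.4 to 92.0 CPM, with unadjusted p for the times of 0.00466 and 0.0184. Nfe2l1 itself averaged 115 CPM, with 123 and 122 CPM at CT14 against 103 to 120.4 CPM. Calr and Canx, the lectin chaperones of MHC class I folding, ranged from 413 to 550 CPM and from 300.3 to 390.5 CPM. By edgeR's quasi-likelihood test with all 12 libraries, their unadjusted p for the times was 0.000787 and 0.00342. The adjusted p was 0.110 and 0.169 in the same test. Both genes passed in the other settings given above.

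Promoters were read from RefSeq on GRCm38.p6 for 38 of the 45 genes, 41 promoters in all, each with 250 bases before the transcription start and 50 after it. They were searched on both strands for TGACNNNGC and the looser TGANNNNGC, which contains it, the antioxidant response elements that NRF1 binds. Also searched were the heat shock element cores GAANNTTC and TTCNNGAA, the E-box CACGTG that CLOCK and BMAL1 bind, and the core of the interferon-stimulated response element. The GAANNTTC, TTCNNGAA and CACGTG motifs read the same on both strands. TGACNNNGC occurred in 14.6% of the member promoters and in 12.4% of all 32851 promoters, and TGANNNNGC in 58.5% and 41.3%. The E-box occurred in 9.76% and 7.15%, the interferon-stimulated core in 9.76% and 3.44%, GAANNTTC in 4.88% and 7.86%, and TTCNNGAA in 4.88% and 8.52%. A match is a description of letters and not a bound site.

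The stretches upstream of a constitutive cutting subunit with a heat shock element core, of another without it, of an immunoproteasome subunit and of Psmd11 are shown because these are the genes compared at CT14. They run 5′ to 3′ on the gene's strand and leave out transcribed bases, and capitals mark the motif matches. The Psmb5 stretch (chr14:54618023-54618245, minus strand) holds GAACATTC from -242 and TGACGTCGC from -47 relative to the start. The Psmb6 stretch (chr11:70525227-70525356, plus strand) ends in TGACGGAGC from -9. The Psmb10 stretch (chr8:105938445-105938552, minus strand) holds CACGTG from -116. None of the motifs lies in the Psmd11 stretch (chr11:80428485-80428614, plus strand).
Psmb5: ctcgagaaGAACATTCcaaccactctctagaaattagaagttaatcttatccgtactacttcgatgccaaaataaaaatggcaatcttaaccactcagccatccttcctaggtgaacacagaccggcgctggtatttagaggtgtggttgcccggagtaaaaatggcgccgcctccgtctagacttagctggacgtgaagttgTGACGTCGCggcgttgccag
Psmb6: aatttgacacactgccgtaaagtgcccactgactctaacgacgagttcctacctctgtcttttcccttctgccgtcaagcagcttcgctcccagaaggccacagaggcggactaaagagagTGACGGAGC
Psmb10: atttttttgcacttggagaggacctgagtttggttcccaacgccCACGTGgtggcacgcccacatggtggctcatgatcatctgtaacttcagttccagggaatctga
Psmd11: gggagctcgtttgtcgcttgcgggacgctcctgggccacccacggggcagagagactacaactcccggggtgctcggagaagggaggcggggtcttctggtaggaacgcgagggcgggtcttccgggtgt

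Of the genes with a heat shock element core in this window, Psmb5, Psmb9, Psmd4 and Psme3, the differences at CT14 were 0.06, 0.03, -0.01 and 0.07 log2. The 4 genes with an E-box, Psma4, Psmb10, Psmd9 and Psme3, had amplitudes of 0.11, 0.05, 0.07 and 0.05 log2 for the 24 h wave. The 4 with the interferon-stimulated element core were Psmb3, Psmd4, Psmd9 and Psme1, of which Psme1 is the interferon-induced PA28α gene.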

How the data were processed

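PolyA RNA of 12 libraries, 6 circadian times on each of 2 days, was analysed from 2 kinds of file. The submitters' processing notes name bcl2fastq 2.19, Trimmomatic 0.35, STAR 2.5.1b and RSEM 1.2.28, with the mouse build GRCm38. The annotation behind the files is not given in the sources used here. Unnormalised read counts per gene were deposited in STAR's layout, of which column 4 was used, since it left 11.4% to 13.9% of fragments without a gene and the opposite strand column 77.6% to 80.9%. The tables' 4 summary lines, which are no genes and made up 29.3% to 31.2% of fragments, entered neither library sizes nor tests. The authors also deposited RSEM expected counts and TPM. The TPM values are scaled to transcript length and to the same sum per library, and the expected counts were rounded for the test that used them. Symbols and positions came from GENCODE M21, which matched 50376 of 50600 identifiers, 45737 with the same version.

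Counts were tested with edgeR 4.0.16 in R 4.3.3: filterByExpr by circadian time kept 16396 genes, TMM set the scaling, and quasi-likelihood F tests were adjusted by Benjamini-Hochberg over all of them at 0.05. The tests were the 6 times, a 24 h cosine and sine, CT14 against the mean of the other 5 times, and day 2 against day 1 beside the times. DESeq2 1.42.0 and limma 3.58.1 on log2(TPM + 0.5) were alternatives. The scripts were tested on simulated data. The number in each label is the day, so it pairs libraries of 1 day; over 10153 genes, the day differences of the 15 pairs of times had correlations of -0.60 to 0.35 (median 0.08). Values after ± are SDs over libraries, or standard errors for log2 differences and amplitudes. Values in every library are given for the cutting subunit pairs, Psme1, Psme2 and, in each other role group, the 2 genes of smallest unadjusted p for the times; in the wider lists, genes that passed and the 2 of smallest p are named, and other members by their role. The members and lists were chosen with earlier results of these data known. A further gene list is not reported here.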

Additional observations from a re-analysis of the deposited data

Results flagged for a closer look

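Each of the 25 genes or ratios given library by library was examined for a library far from the others. This was done within the 6 libraries of 1 day, which made 50 groups. Chance flags about 1 in 20 independent groups. These groups share the same 12 libraries, so 1 odd library can flag many of them. Some of the genes were also picked by their smallest unadjusted p for the times. A library stood apart in 15 of the 50 groups, and 12 of the 15 were the CT2 library of day 1, each time as the highest. The values in that library were 195.4 CPM for Psma2, 175.7 CPM for Psma4, 152.4 CPM for Psmb3, 158.7 CPM for Psmb4, 93.31 CPM for Psmb6, 106.4 CPM for Psmb7, 167.3 CPM for Psmb9, 176.7 CPM for Psmc3, 130.5 CPM for Psmc6, 99.74 CPM for Psmd6, 68.87 CPM for Psmd5 and 34.55 CPM for Psmd10. The gap to the nearest other library took up 0.631 of the day's range for Psmb7, the smallest of these shares, and 0.900 for Psma4, the largest; the limit is 0.625. The other 3 were the CT14 library of day 2, again as the highest of its day, with 138.7 CPM for Psmb10, 319.2 CPM for Psme2 and 199.9 CPM for Psmd2. On day 1 the CT14 library did not stand apart for these 3 genes. The monocyte and macrophage markers summed to 928 CPM in CT2 day 1 and to 732 CPM in CT14 day 2; their part in these values was not tested.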

How the results depend on the processing

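The counts of members that passed the wave, CT14 and day tests stayed at 0 in every setting tried for them: other scaling, filters, strand column and expected counts where run, DESeq2, limma on TPM, and each library left out. For the circadian times, leaving out 1 library gave 0 to 17 members, with 17 only without CT2 day 2, and no filter on low counts gave 7, all with CT2 day 1 as their highest library. The replicate block, which pairs libraries by day, gave 0 members in each test of the times, the wave and CT14, the same as without it. Among all genes it lowered the calls at CT14 to 96 from 186 and those of the times to 20 from 42, and the call of Irf1 at CT14 was lost; the day test already compares the days. Of the day differences of the members, 39 were above 0 when either CT2 library was left out, against 12 with all. These 2 settings are not separate checks, since a time with 1 library left adds nothing to the comparison of the days. The median difference at CT14 ran from -0.0031 (without CT14 day 2) to 0.0463 (without CT2 day 1) when 1 library was left out. The median Psmb8 over Psmb5 ratio was 4.81 in TPM and 10.18 in counts per kilobase of effective length, where the lower gene counts of Psmb5 enter, and that of Psmb10 over Psmb7 was 2.192 in TPM and 2.384 in counts per kilobase, for which the cause was not tested. With 1 library left out, these medians ran from 4.80 to 4.82 and from 2.17 to 2.21, and that of Psmb9 over Psmb6 from 1.27 to 1.30. With 2 libraries per time, members of at least 20 CPM could differ at CT14 by up to 0.28 log2 within 2 standard errors. Without CT2 day 1, 3.91% of all genes differed among the times, against 0.256% with it.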
